A study of Homo sapiens with 15 samples.

Results

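The Y RNAs RNY1, RNY3, RNY4 and RNY5 were read in all 15 small RNA libraries of the series. They were chosen by gene name, as the 4 genes of the count table that carry a functional Y RNA name, out of 50037 genes listed and 21453 with any count. All 4 had counts in every library and were among the 4099 genes that passed the filter on low counts. The libraries came from cells labelled HEK-293, a human line derived from embryonic kidney, of genotype WT, incubated for 18 h in 3 groups of 5 libraries. The first group received very low-density lipoprotein (VLDL) hydrolysis products together with GKT136901 at 20 µM (GKT136901+LPL:VLDL), a compound that blocks NOX1 and NOX4, enzymes that make reactive oxygen species. The second received the hydrolysis products alone, which are the lipids that lipoprotein lipase (LPL) releases from VLDL (LPL:VLDL), and the third received VLDL (titled pcDNA:VLDL, with pcDNA not explained). No group without lipoprotein was analysed here. The labels give each library an experiment number from 2 to 6, and every experiment held 1 library of each group, so treatment and experiment could be told apart.

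Y RNAs are short noncoding RNAs made by RNA polymerase III from their own promoters. Their 5′ and 3′ ends pair into a stem that is bound by the Ro60 protein, the La protein binds the run of uridines at the 3′ end, and the loop in between is bound by other proteins. They are known for roles in RNA quality control and in the start of DNA replication, and their fragments are common in small RNA libraries, in plasma and in extracellular vesicles. The table counts reads per gene and gives neither read length nor position, so full-length Y RNAs and their fragments could not be told apart.

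The 4 genes lie in 1 cluster on human chromosome 7 (hg38), within 45761 bases. RNY5 covers chr7:148941488-148941571 on the plus strand (84 bases), RNY4 chr7:148963315-148963410 on the plus strand (96 bases), RNY3 chr7:148983755-148983856 on the plus strand (102 bases) and RNY1 chr7:148987136-148987248 on the minus strand (113 bases). Each is a noncoding RNA gene of 1 exon, and 0 exons of other genes in the annotation overlap them. The sequences of RNY1 and RNY4 are shown 5′ to 3′ as the DNA of the RNA's own strand, to make visible the ends that form the stem and the loop that sets them apart. They were read from GENCODE release 29 transcripts (GRCh38), whose coordinates equal those of the count table. Capitals mark the first 11 bases and the 6 bases near the 3′ end that both share.
RNY1: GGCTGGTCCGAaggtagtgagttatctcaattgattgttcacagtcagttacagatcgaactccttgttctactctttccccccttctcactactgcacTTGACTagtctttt
RNY4: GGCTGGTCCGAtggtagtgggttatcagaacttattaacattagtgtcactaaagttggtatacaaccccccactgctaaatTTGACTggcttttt

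Both genes begin alike, then diverge in the loop, with an identity of 63.7% over the alignment. In predicted folds (ViennaRNA), the first 30 and last 30 bases formed 17 base pairs with each other in RNY1 and 20 in RNY4, with predicted energies of -34.4 and -31.2 kcal/mol. Each gene ends in a run of T, the terminator of RNA polymerase III, of 4 bases in RNY1 and 5 bases in RNY4. The shared start GGCTGGTCCGA, searched on both strands, occurred in 38 of 4410 annotated transcripts of 80 to 120 bases (0.862%), and all 38 carry a Y RNA name or family name.

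RNY1 was the most abundant member in every library. Over the 15 libraries it held 1494833 counts, 88.7% of the family, and RNY5 held 185455 (10.999%), while RNY3 held 3005 (0.178%) and RNY4 held 2830 (0.168%). Per 100 bases of gene, the mean level in CPM (counts scaled to a common library total) was 10060.1 ± 8243 for RNY1, 1672 ± 862 for RNY5, 22.3 ± 14.7 for RNY3 and 22.2 ± 8.27 for RNY4 (SD, n = 15 libraries). RNY1 thus held 449 times and RNY5 74.9 times as many counts per base as RNY3, while RNY3 and RNY4 differed by less than their spread. Counts per library ran from 26942 to 256139 for RNY1 and from 4304 to 24902 for RNY5, against 66 to 465 for RNY3 and 84 to 309 for RNY4, so counting error is small for RNY1 and RNY5 and larger for RNY3 and RNY4.

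The levels of the members depend on how reads with several matches were counted. Per the file header, such reads were not counted, and human genomes hold many Y RNA copies: the RefSeq gene table lists 75 Y RNA pseudogenes, 16 named for RNY1, 16 for RNY3, 33 for RNY4 and 10 for RNY5. Every 20-base window of RNY1 and RNY4 had an exact copy in a transcript of another gene, among 206691 transcripts searched. At 30 bases the share of windows with a copy was 96.4% for RNY1 and 91.0% for RNY4, and at 50 bases it was 25.0% and 12.8%. At 75 bases neither had one (0 of 39 and 0 of 22 windows). The 30-base windows without a copy lay within bases 1 to 32 of RNY1 and bases 62 to 96 of RNY4. The order of levels between members therefore describes uniquely placed reads, and the part of uncounted reads in the gaps between members was not tested.

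**Figure D1:**
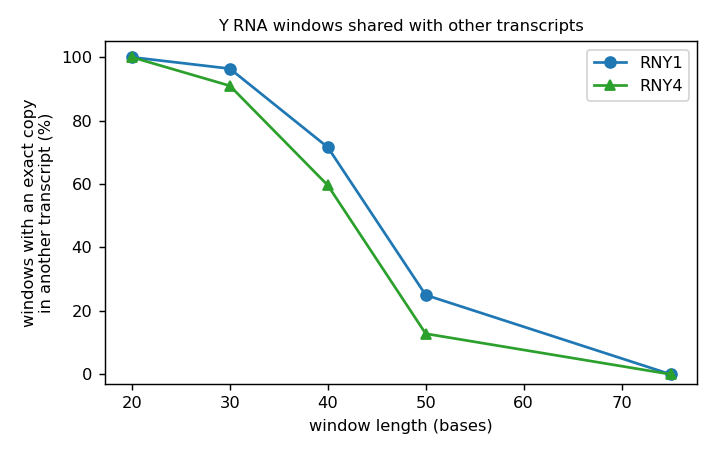
Share of windows of RNY1 and RNY4 (vertical axis, percent) that have an exact copy in a transcript of another gene, by window length in bases (horizontal axis). Both lines start at 100% at 20 bases and fall to 25.0% for RNY1 and 12.8% for RNY4 at 50 bases.

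Library totals ran from 5076917 to 9757123 counts. The lowest was the GKT136901+LPL:VLDL library of experiment 3. Over the 12 HEK-293 markers fixed for the label check, the 15 libraries together held 240 counts, with 3 markers at 0 and none passing the filter. The 18 myeloid cell markers held 6428 counts, with 2 at 0 and 9 passing the filter. Most of these counts came from CSF1R, ITGB2, SPP1 and LAPTM5 (1771, 1382, 1316 and 935). Other myeloid markers were near the floor, with 56, 31, 30, 4 and 3 counts for CD68, CD14, LYZ, MRC1 and CD163. The series title speaks of macrophages. The cells are therefore called by their label only. Blood and platelet markers held 1 count in all (7 of 8 at 0) and liver markers 21 counts (4 of 6 at 0). The libraries of experiment 2 stood apart from the other 12 in their TMM scaling factors, which were 1.16 with GKT136901+LPL:VLDL, 1.34 with LPL:VLDL and 1.32 with VLDL, against 0.765 to 1.03 in experiments 3 to 6. They also held a lower share of miRNA counts (31.1% ± 1.38, n = 3, against 40.7% ± 5.00, n = 12) and a higher share of mRNA fragments (1.52% ± 0.137 against 0.996% ± 0.0955). Results are given with and without experiment 2.

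The first question of the design was whether LPL hydrolysis products change Y RNA levels, and the second was whether GKT136901 alters them in cells given those products. None of the 4 Y RNAs passed the test in any treatment comparison. In RNA from whole cultures, fewer cells of a kind and less RNA per cell cannot be told apart. Levels are given as CPM scaled by TMM factors, in the order of experiments 2, 3, 4, 5 and 6. RNY1 had 25412, 5417, 6449, 9065 and 7099 CPM with GKT136901+LPL:VLDL. It had 22244, 5917, 6476, 8995 and 8160 CPM with LPL:VLDL. It had 21773, 6442, 7003, 9476 and 7392 CPM with VLDL. The 3 groups overlapped almost entirely, and in each the library of experiment 2 was the highest by more than 2-fold over the next.

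RNY5 had 2576, 865, 948, 1350.0 and 1216 CPM with GKT136901+LPL:VLDL. It had 2079, 1187, 993, 1265 and 1134 CPM with LPL:VLDL. It had 1927, 936, 1026, 1370.0 and 1308 CPM with VLDL. The groups again overlapped, with experiment 2 highest in each. RNY3 had 42.2, 13.3, 24.1, 15.9 and 13.04 CPM with GKT136901+LPL:VLDL. It had 40.4, 19.3, 14.6, 18.9 and 13.7 CPM with LPL:VLDL. It had 38.3, 17.4, 16.3, 16.0 and 17.6 CPM with VLDL. RNY3 showed the same pattern at a far lower level, with less agreement among experiments 3 to 6. RNY4 had 27.9, 16.9, 24.1, 11.9 and 17.8 CPM with GKT136901+LPL:VLDL. It had 26.6, 31.03, 16.4, 15.1 and 15.3 CPM with LPL:VLDL. It had 27.2, 24.2, 22.8, 17.5 and 18.2 CPM with VLDL. RNY4 differed from the others in that its highest library was that of experiment 3 with LPL:VLDL.

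**Figure D2:**
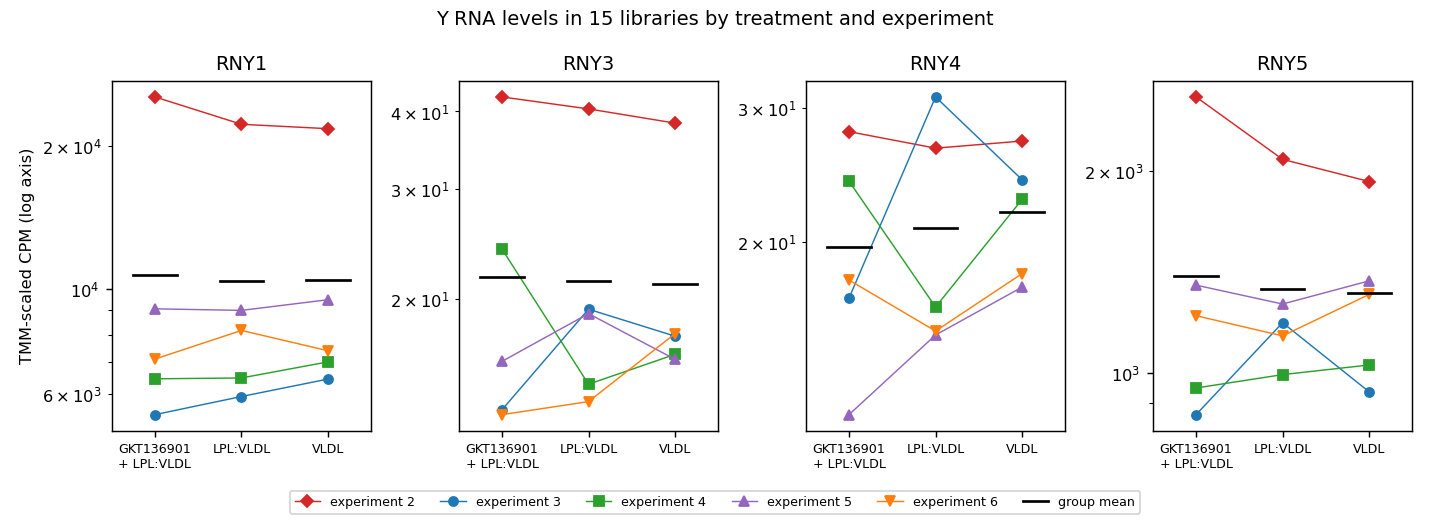
Level of each Y RNA (vertical log axis, TMM-scaled CPM) in 15 libraries by treatment group (horizontal axis), with a line for each experiment and a black bar for the mean of 5 libraries. Experiment 2 (red diamonds) lies above all other libraries for RNY1, RNY3 and RNY5, and the group means lie close together.

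Group means of RNY1 were 10688 ± 8338 CPM with GKT136901+LPL:VLDL, 10359 ± 6760 with LPL:VLDL and 10417 ± 6451 with VLDL (SD, n = 5 each). RNY5 averaged 1391 ± 691, 1332 ± 430 and 1313 ± 389 CPM in the same groups, RNY3 averaged 21.7 ± 12.3, 21.4 ± 10.9 and 21.1 ± 9.63 CPM, and RNY4 averaged 19.7 ± 6.31, 20.9 ± 7.41 and 21.9 ± 4.09 CPM. For RNY1, RNY3 and RNY5 the SD within a group came mostly from experiment 2. In the edgeR fit without the experiment, the log2 difference of LPL:VLDL minus VLDL was -0.01 for RNY1 (SE 0.38), 0.02 for RNY3 (SE 0.36), -0.07 for RNY4 (SE 0.29) and 0.02 for RNY5 (SE 0.26). In the comparisons with GKT136901 the members' differences lay between -0.15 and 0.08. Of the 4 members 0 were called in any of the 3 comparisons, and of all 4099 genes 0 were called (0%). At an unadjusted p under 0.05, edgeR passed 77 of 4099 genes for LPL:VLDL against VLDL, 87 for GKT136901+LPL:VLDL against LPL:VLDL and 91 for GKT136901+LPL:VLDL against VLDL. DESeq2 passed 126, 128 and 128 at that threshold, in the same order. At an adjusted p under 0.05, DESeq2 called 0 in each.

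With the experiment as a block the errors of RNY1 were much smaller, which makes the size of any treatment difference clearer. RNY1 then differed by -0.03 on the log2 scale between LPL:VLDL and VLDL (SE 0.094, 95% interval -0.22 to 0.16), a fold between 0.858 and 1.12, and was higher with LPL:VLDL in 2 of 5 experiments. It differed by -0.02 between GKT136901+LPL:VLDL and LPL:VLDL (interval -0.22 to 0.17, higher in 2 of 5) and by -0.05 between GKT136901+LPL:VLDL and VLDL (interval -0.25 to 0.14, higher in 1 of 5). For RNY5 the 3 blocked differences were 0.02 (interval -0.20 to 0.24), -0.00 (interval -0.22 to 0.22) and 0.02 (interval -0.21 to 0.24) in the same order. The intervals of RNY3 were wider, at -0.37 to 0.36 for LPL:VLDL against VLDL and -0.37 to 0.37 for GKT136901+LPL:VLDL against LPL:VLDL. RNY4 gave the differences farthest from 0 among the members, at -0.10 (interval -0.47 to 0.27), -0.07 (interval -0.44 to 0.31) and -0.17 (interval -0.54 to 0.20), all with intervals that include 0. In the filtered edgeR fits on all 15 libraries, with and without the block, the lowest adjusted p of a member was 0.989. Without experiment 2, the blocked differences between GKT136901+LPL:VLDL and VLDL were -0.15 for RNY1 (SE 0.096), -0.07 for RNY3 (SE 0.21), -0.25 for RNY4 (SE 0.21) and -0.11 for RNY5 (SE 0.11), all below 0 and none called (edgeR adjusted p = 0.9995 for each). They were also below 0 without experiment 2 for LPL:VLDL against VLDL, at -0.08, -0.06, -0.15 and -0.04 for RNY1, RNY3, RNY4 and RNY5, and for GKT136901+LPL:VLDL against LPL:VLDL, at -0.07, -0.0078, -0.10 and -0.08, again with none called (lowest edgeR adjusted p 0.973). These comparisons share libraries and are not independent of each other. Over all genes the blocked edgeR fit called 1 for LPL:VLDL against VLDL (0.0244%), MIR132, named after its values were seen, with a log2 difference of 0.70 (SE 0.13, adjusted p = 0.0494), and 0 for the other 2 comparisons. DESeq2 with the same block called 5 genes for LPL:VLDL against VLDL (MIR132, MIR212, MIR378A, MIR320A and TRV-AAC1-1) and 2 for GKT136901+LPL:VLDL against VLDL (MIR139 and LOC105371225), also named after their values were seen, and 0 for GKT136901+LPL:VLDL against LPL:VLDL. None of these was a Y RNA. Y RNAs moved in the same direction in 5 of 5 experiments in none of the comparisons, against 6.51%, 6.9% and 7.39% of all tested genes over the 3 comparisons.

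**Figure D3:**
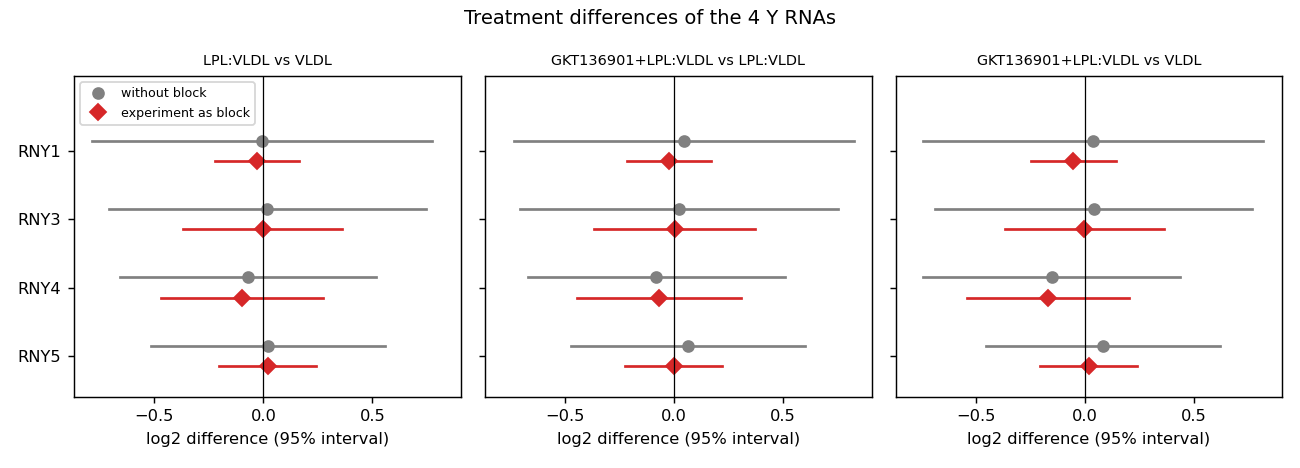
Log2 difference of each Y RNA in the 3 treatment comparisons (horizontal axis, bars are 95% intervals from edgeR), without the experiment (grey) and with it as a block (red). All intervals cross 0, and those of RNY1 narrow most with the block, to -0.22 to 0.16 for LPL:VLDL against VLDL.

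The family as a share of all counts does not depend on TMM scaling, and it passed no test either. Summed Y RNAs held 3.24%, 0.618%, 0.762%, 1.05% and 0.759% of counts in experiments 2 to 6 with GKT136901+LPL:VLDL. They held 3.25%, 0.546%, 0.692%, 0.982% and 0.768% with LPL:VLDL, and 3.12%, 0.746%, 0.797%, 1.03% and 0.861% with VLDL. Means were 1.29% ± 1.11, 1.25% ± 1.13 and 1.31% ± 1.01 in these groups (SD, n = 5 each). Wilson 95% intervals of a single share were narrow (3.23% to 3.26% for the first value) and cover counting error only. Exact permutation over libraries, two-sided, gave an adjusted p of 0.897 for each of the 3 comparisons. The share was higher with LPL:VLDL than with VLDL in 1 of 5 experiments, higher with GKT136901+LPL:VLDL than with LPL:VLDL in 3 of 5, and higher with GKT136901+LPL:VLDL than with VLDL in 2 of 5. Within the family no member's share passed the test, and RNY1 held 87.0% ± 2.13 of Y RNA counts with GKT136901+LPL:VLDL, 87.0% ± 3.04 with LPL:VLDL and 87.4% ± 2.56 with VLDL. The 12 exact permutation tests of the members' shares all gave an adjusted p of 0.992. The exact test allows an unadjusted p as small as 0.00794 at this size. After adjustment over the 12 tests, a single member's share at that value would not pass. The test also does not pair libraries by experiment. The spread between experiments therefore enters it, and a small treatment difference in the share could be missed. Without experiment 2 the summed share differed by -0.112 percentage points between LPL:VLDL and VLDL, 0.05005 between GKT136901+LPL:VLDL and LPL:VLDL and -0.0621 between GKT136901+LPL:VLDL and VLDL, with an adjusted p of 0.743 for each by the exact permutation test. With so few libraries, a single comparison could not pass that test after adjustment.

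The experiment, in contrast, accounted for most of the variation of the Y RNAs. By an edgeR F test over the 5 experiments with treatment in the model, all 4 members differed between experiments, with adjusted p = 1.52e-13 for RNY1, 6.46e-07 for RNY5, 4.31e-05 for RNY3 and 0.0472 for RNY4. Of all tested genes 455 of 4099 were called (11.1%), and of the 471 with a mean of at least 10 CPM 61.8% were called, so a call is common at these levels. All 4 were called and higher in experiment 2, as were 3.95% of all tested genes. That share was not counted among the 471 more abundant genes, where calls are more common. By p-value RNY1 ranked 5, RNY5 38, RNY3 83 and RNY4 439 among the 4099 genes. Experiment accounted for 98.7% of the variance of log2 CPM of RNY1, 91.6% of RNY5, 87.4% of RNY3 and 66.5% of RNY4. Treatment accounted for 0.0957%, 0.0274%, 0.0376% and 4.28% in the same order. The median of the 471 genes was 70.4% for experiment and 4.65% for treatment.

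Experiment 2 carried most of the variation between experiments for RNY1, RNY3 and RNY5. For RNY4 it lay only 0.18 above experiment 3 on the log2 scale, but 0.89 above experiment 5. Leaving out experiment 2 ended the edgeR call for RNY3 (adjusted p = 0.951), RNY4 (0.353) and RNY5 (0.0804). RNY1 stayed called (0.00314), and the number of genes called was 145. The RNY4 call also ended without experiment 5 (0.234) or experiment 6 (0.0853), without any of 12 single libraries (0.0524 to 0.163), and without the filter on low counts (0.515). The difference between experiment 2 and experiments 3 to 6 is given as a size with no test, since experiment 2 was singled out in earlier results of these data. RNY1 was higher in experiment 2 by 1.68 on the log2 scale (SE 0.087, a 3.21-fold difference), at 23143 ± 1979 CPM (SD, n = 3) against 7324 ± 1321 (n = 12). RNY3 was higher by 1.28 (SE 0.17, 2.42-fold), at 40.3 ± 1.95 CPM against 16.7 ± 3.12. RNY5 was higher by 0.96 (SE 0.10, 1.95-fold), at 2194 ± 340 CPM against 1133 ± 175. For these members all 3 libraries of experiment 2 lay above all 12 others, as they did for 3.32% of all tested genes and 6.37% of the 471 more abundant ones. A difference of 1 or more on the log2 scale was reached by RNY1 and RNY3, against 15.7% of all tested genes and 3.82% of the more abundant ones.

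RNY4 differed from the rest of the family. It had 27.2 ± 0.682 CPM in experiment 2 against 19.3 ± 5.27 in experiments 3 to 6, a log2 difference of 0.53 (SE 0.18), and 1 library of experiments 3 to 6 (31.03 CPM) lay above all of experiment 2. With library-size scaling alone in place of TMM the differences were 2.11 for RNY1, 1.71 for RNY3, 1.39 for RNY5 and 0.96 for RNY4. The median of all tested genes for the same difference was 0.55 under that scaling and 0.12 under TMM, and the members' differences moved by about as much as that median.

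**Figure D4:**
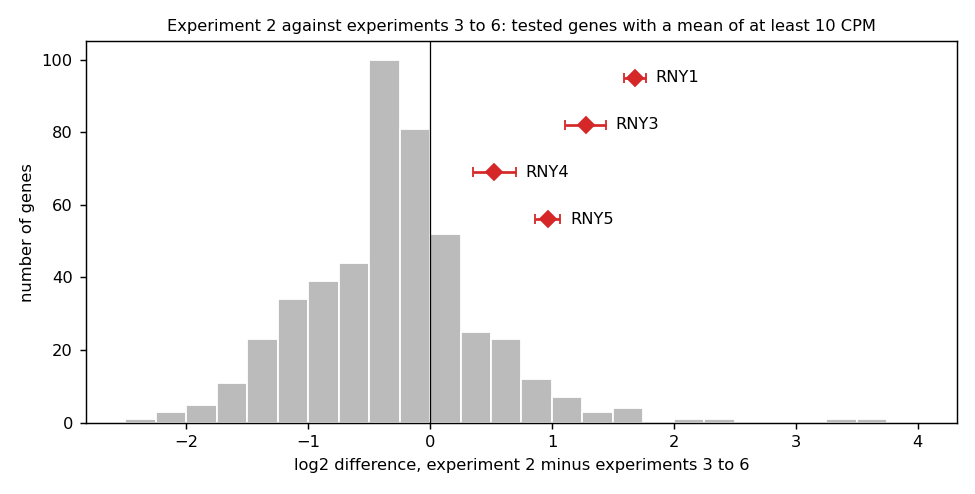
Number of tested genes with a mean of at least 10 CPM (vertical axis, grey bars) by their log2 difference between experiment 2 and experiments 3 to 6 (horizontal axis), with each Y RNA as a red diamond with its SE, placed at an arbitrary height. RNY1, RNY3 and RNY5 lie at 1.68, 1.28 and 0.96, in the right tail, and RNY4 at 0.53.

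Among experiments 3 to 6, TMM-scaled RNY1 levels fell into an order. Experiment 5 was highest at 9179 ± 259 CPM, followed by experiment 6 (7550 ± 548), experiment 4 (6643 ± 312) and experiment 3 (5925 ± 512), with n = 3 libraries each. The ranges of these experiments did not overlap, but the gap between experiments 6 and 4 was small (lowest 7099 against highest 7003 CPM). Experiments 4 and 3 nearly touched (lowest 6449 against highest 6442 CPM). How many other genes separate experiments 3 to 6 in this way was not counted. Unscaled RNY1 CPM kept experiment 5 apart (8580.0 to 9106), but the ranges of experiment 6 (6453 to 7287), experiment 4 (5975 to 6920.0) and experiment 3 (4516 to 6478) overlapped. RNY5 had 1328 ± 55.6 CPM in experiment 5 and 1219 ± 86.8 in experiment 6, then 996 ± 169 in experiment 3 and 989 ± 39.1 in experiment 4, and each neighbour in this order overlapped the next. RNY3 had between 14.8 ± 2.46 (experiment 6) and 18.3 ± 5.05 CPM (experiment 4), with overlap throughout. RNY4 had another order, with 24.0 ± 7.07 CPM in experiment 3, 21.1 ± 4.07 in experiment 4, 17.1 ± 1.58 in experiment 6 and 14.8 ± 2.80 in experiment 5, and neighbours in this order overlapped.

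Because the members did not shift equally, the makeup of the family differed in experiment 2. RNY1 had 9.86, 10.7 and 11.3 counts for each RNY5 count in the GKT136901+LPL:VLDL, LPL:VLDL and VLDL libraries of experiment 2, against 4.99 to 7.20 in the other 12 libraries. RNY1 made up 91.1% ± 0.528 of Y RNA counts there (range 90.6% to 91.6%), and 82.7% to 87.5% elsewhere. RNY4 had 0.658 to 0.709 counts for each RNY3 count in experiment 2, against 0.748 to 1.61 elsewhere. A ratio within a library does not depend on how other RNA classes scale, and neither ratio overlapped between experiment 2 and the other experiments. For RNY4 to RNY3 the gap was narrow, 0.709 against 0.748, and the latter rests on 104 RNY4 and 139 RNY3 counts. How many other gene pairs separate experiment 2 in this way was not counted. Against miRNA, the summed Y RNAs had 107, 99.5 and 103 counts per 1000 miRNA counts in experiment 2 and 16.8 to 24.7 elsewhere.

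**Figure D5:**
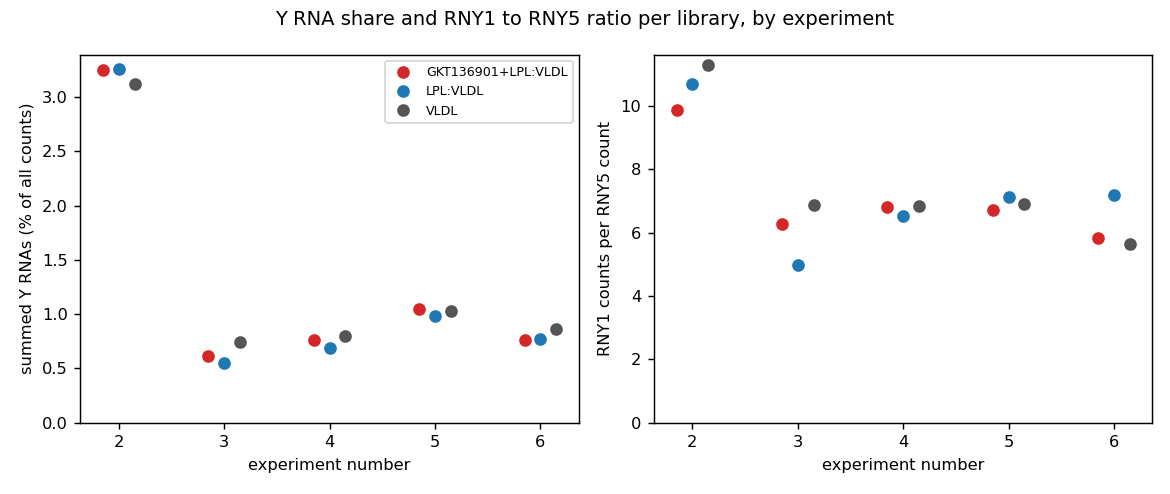
Summed Y RNA counts as a percent of all counts (left) and RNY1 counts per RNY5 count (right) by experiment number (horizontal axes), with 1 point per library coloured by treatment. Experiment 2 lies at 3.12% to 3.25% and at ratios of 9.86 to 11.3, above every other library in both panels.

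The medians of the other RNA classes listed here lay below the experiment 2 differences of all 4 Y RNAs, but single genes in several classes did not. The median log2 difference of tested genes was -0.53 over 291 miRNAs, -0.12 over 166 C/D box snoRNAs, -0.03 over 67 H/ACA box snoRNAs, -1.05 over 164 nuclear tRNAs, 0.31 over 14 mitochondrial tRNAs and 0.29 over 3214 mRNAs. The highest single gene of each class, in the same order, reached 3.51, 1.48, 0.68, 1.57, 1.74 and 4.95. Of the other short RNA polymerase III transcripts, 4 of 18 listed passed the filter and all 4 differed between experiments, where 11.1% of all tested genes and 61.8% of those with a mean of at least 10 CPM did so. The vault RNA VTRNA1-2, part of the vault particle, was at 13.9 ± 1.06 CPM in experiment 2 against 5.99 ± 3.501 in experiments 3 to 6 (adjusted p of the edgeR F test = 0.0029). Its highest library of experiments 3 to 6 (15.2 CPM) lay above all of experiment 2 (up to 15.1 CPM). The other 3 were lower in experiment 2 with TMM scaling, and their differences under library-size scaling alone were not computed. In unscaled CPM, the 18 listed transcripts together held 579 to 625 in experiment 2 against 482 to 690 (median 560) in experiments 3 to 6. RN7SK, which holds the elongation factor P-TEFb inactive, had 136 ± 8.94 CPM against 203 ± 27.1 (adjusted p = 0.0075 by the same edgeR test). RMRP, the RNA of RNase MRP, had 314 ± 23.5 CPM against 394 ± 55.0 (adjusted p = 0.0099), and RN7SL1, the RNA of the signal recognition particle, had 7.24 ± 0.786 CPM against 15.5 ± 2.85 (adjusted p = 0.0090). RN7SK and RN7SL1 have many near-identical pseudogene copies, so their counts describe uniquely placed reads only.

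Genes for proteins that bind or process Y RNAs were represented by mRNA fragments at low counts. Of 34 listed genes 13 passed the filter, and 0 were called in any treatment comparison. RO60, SSB (La) and TRIM21 (Ro52) had 111, 40 and 31 counts over all libraries and were not tested. Between experiments 3 of the 13 were called, against 11.1% of all genes, and the other 10 did not pass the test. In experiment 2, 12 of 13 had a difference above 0, against 55.6% of all tested genes (2277 of 4099), and the median was 0.68 against 0.12 for all tested genes. CALR, a chaperone of the endoplasmic reticulum, had 17.8 ± 3.03 CPM in experiment 2 against 5.46 ± 2.39 elsewhere (edgeR adjusted p = 3.23e-05). NCL (nucleolin), which binds Y RNA loops, had 6.74 ± 1.02 against 2.86 ± 1.28 CPM (edgeR adjusted p = 0.0058). PTBP1, another loop-binding protein, had 5.02 ± 1.87 against 1.75 ± 1.07 CPM (edgeR adjusted p = 0.0414). mRNA fragments as a class had a median log2 difference of 0.29, so part of this shift was shared by mRNAs in general.

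Of 23 genes for RNA polymerase III and its promoter factors, 2 passed the filter and 0 were called. Of 24 caspase and apoptosis genes 11 were tested and 0 called, of 17 interferon and RNA-sensing genes 4 were tested and 0 called, and of 9 genes next to the cluster 4 were tested and 0 called, between treatments or experiments. Among all tested genes edgeR called 11.1% between experiments and at most 0.0244% in a treatment comparison. Mean levels of the tested genes in these lists ran only from 0.70 (BRF1) to 7.84 CPM (MCL1), so 0 calls in such short lists say little. Myeloid cell markers moved with experiment 2. Of 9 tested, 4 differed between experiments (CSF1R, ITGB2, SPP1 and LAPTM5) and 9 of 9 had a positive difference in experiment 2 (median 1.24 on the log2 scale), against 11.1% called and 55.6% positive among all tested genes. Those 4 genes held most of the counts of the 18 listed markers. The summed level of the 18, in unscaled CPM, was 80.9 to 125 in experiment 2 against 27.1 to 51.2 (median 34.0) in experiments 3 to 6. By treatment it was 27.6 to 80.9 unscaled CPM with GKT136901+LPL:VLDL, 27.1 to 125 with LPL:VLDL and 36.3 to 106 with VLDL. HEK-293 markers summed to 1.32 to 2.78 unscaled CPM in experiment 2 and 0.529 to 5.22 elsewhere. These sums carry no TMM factors, so their experiment 2 contrast is not comparable with that of TMM-scaled levels. The part of these markers, of the mRNA share and of the TMM factors in the Y RNA difference of experiment 2 was not tested.

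Profiles across the 15 libraries were compared by the root mean square difference of centred log2 CPM, where 0 means the same profile, over 467 other genes with a mean of at least 10 CPM. The genes most like the summed Y RNAs were SNORD7 (0.253), SH2D6 (0.290), LOC124904006 (0.320), mitochondrial COX2 (0.332) and ACTB (0.337), against a median of 0.871 over all candidates. All 5 were higher in experiment 2, as their choice by likeness entails: SNORD7, a C/D box snoRNA, had 64.6 ± 13.02 CPM there against 28.5 ± 5.68 in experiments 3 to 6, and SH2D6 had 102 ± 16.4 against 32.4 ± 3.55. RNY1 was nearest to SNORD7 (0.273), SH2D6 (0.297) and COX2 (0.347), and RNY5 to LOC124904006 (0.174), ACTB (0.189) and SMAP2 (0.194). RNY3 was nearest to TRD-GTC1-1 (0.277), SMAP2 (0.299) and SNORD15A (0.300). RNY4 was nearest to SNORD94 (0.193), SNORD14C (0.215) and SCARNA2 (0.235), none of which was among the nearest of another member.

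Between members, the distance was 0.320 for RNY1 and RNY5, 0.327 for RNY3 and RNY5, 0.351 for RNY1 and RNY3, 0.412 for RNY3 and RNY4, 0.470 for RNY4 and RNY5 and 0.668 for RNY1 and RNY4. RNY1 and RNY4, the members with the largest and smallest differences in experiment 2, were thus the least alike pair of the 4 genes, although they lie within the same cluster.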

How the data were processed

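Small RNA from 15 libraries of cells labelled HEK-293 was sequenced. TRIzol extraction, DNase treatment and a NEBNext small RNA library kit were used, per the labels' protocols. The authors deposited raw read counts per gene, without normalization. Per the file headers, featureCounts 2.0.6 counted reads over exons of a RefSeq annotation, with none of the options for strand, for multiple mapping or for overlaps between genes, so reads with several matches were not counted and strands were not separated. Per the submitters' processing notes, fastp 0.24.0, STAR 2.7.11b and hg38 were used. 

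Genes were kept by filterByExpr (minimum count 10, minimum total 15), which left 4099 genes holding 99.7% of counts. Differences were tested by edgeR 4.0.16 (R 4.3.3) with TMM scaling and quasi-likelihood F tests, two-sided, adjusted over all genes by Benjamini-Hochberg and called under 0.05. One model held all 3 groups with 12 residual degrees of freedom, and the experiment as a block left 8. The experiment effect was an F test with treatment in the model. DESeq2 1.42.0, other scalings, no filter and left-out libraries were alternatives. Shares were compared by exact permutation tests. The scripts were tested on simulated data. Folds were predicted with ViennaRNA 2.7.2.

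The labels give same-numbered replicates a shared experiment, and this pairs the libraries. Their deviations from the group means correlated at 0.0443 to 0.320 in the 15 same-numbered pairs (median 0.0948) and at -0.131 to 0.116 in the 60 others (median -0.0563). All 30 pairs of libraries within groups had a chi-square divided by its degrees of freedom of 10.5 to 249.6, above sampling noise, and each library was kept as a replicate. Whether experiments used separate cultures is not stated, and the spread behind the p-values may be technical. The members and gene lists were chosen with earlier results of these data known. The other genes named are the members of those lists and, for each member and for their sum, the 3 or 5 genes with the smallest root mean square difference in profile.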

Additional observations from a re-analysis of the deposited data

Results flagged for a closer look

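Within groups of 5 libraries, Dixon's criterion (a gap over 0.71 of the range) set 10 of 27 combinations of measure and group apart, and chance alone does so in about 1 in 20. In all 10 the library was that of experiment 2 and was the highest. RNY1 was set apart in all 3 groups, at 25412 CPM with GKT136901+LPL:VLDL, 22244 with LPL:VLDL and 21773 with VLDL. The summed Y RNA share was too, at 3.24%, 3.25% and 3.12% in the same groups. RNY5 was set apart at 2576 CPM with GKT136901+LPL:VLDL and 2079 CPM with LPL:VLDL, and RNY3 at 40.4 with LPL:VLDL and 38.3 with VLDL. RNY4 was not set apart in any group, nor was any member's share of the Y RNA counts. The 10 values come from 3 libraries and are not independent of each other.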

How the results depend on the processing

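With the experiment as a replicate block, edgeR called 1 gene for LPL:VLDL against VLDL and 0 for the other comparisons. DESeq2 with the block, chosen after seeing the data, called 5 for LPL:VLDL against VLDL, 0 for GKT136901+LPL:VLDL against LPL:VLDL and 2 for GKT136901+LPL:VLDL against VLDL. No treatment difference of a member was called under any alternative (adjusted p 0.939 to 1, with none given by DESeq2 with the block for RNY3 and RNY4 in LPL:VLDL against VLDL). The sign changed in 17 of 72 recomputed values on all 15 libraries, and in 83 of 300 with libraries left out. Under DESeq2 with the block it changed for RNY3 in LPL:VLDL against VLDL (-0.0132) and for RNY1 in GKT136901+LPL:VLDL against LPL:VLDL (-0.0150) and against VLDL (-0.0511). Under the edgeR block the changes were RNY3 for LPL:VLDL against VLDL (-0.00432), RNY1 and RNY5 for GKT136901+LPL:VLDL against LPL:VLDL (-0.0246 and -0.00263), and RNY1 and RNY3 for GKT136901+LPL:VLDL against VLDL (-0.0527 and -0.00233). With library-size scaling they were RNY3 and RNY5 for LPL:VLDL against VLDL (-0.0635 and -0.0696), RNY4 for GKT136901+LPL:VLDL against LPL:VLDL (0.00546), and RNY1 and RNY3 for GKT136901+LPL:VLDL against VLDL (-0.0347 and -0.0247). Without the filter they were RNY3 and RNY5 for LPL:VLDL against VLDL (-0.00891 and -0.000315) and RNY1 and RNY3 for GKT136901+LPL:VLDL against VLDL (-0.0144 and -0.00275). Library-size scaling gave experiment 2 differences of 2.11 for RNY1, 1.71 for RNY3, 0.96 for RNY4 and 1.39 for RNY5, and the RNY4 experiment call ended without the filter (0.515); the cause was not tested.

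Leaving out libraries or experiments, the log2 differences between LPL:VLDL and VLDL ran from -0.49 to 0.43 for RNY1, -0.35 to 0.33 for RNY3, -0.27 to 0.0269 for RNY4 and -0.20 to 0.18 for RNY5. Between GKT136901+LPL:VLDL and LPL:VLDL they ran from -0.54 to 0.52, -0.35 to 0.37, -0.23 to 0.16 and -0.26 to 0.27. Between GKT136901+LPL:VLDL and VLDL they ran from -0.56 to 0.47, -0.34 to 0.34, -0.31 to -0.02 and -0.25 to 0.24. Genes called ran from 0 to 2 for LPL:VLDL against VLDL and from 145 to 506 for the experiment effect, whose adjusted p ran from 2.93e-17 to 0.00314 for RNY1, 3.73e-06 to 0.951 for RNY3, 0.0193 to 0.353 for RNY4 and 6.02e-10 to 0.0804 for RNY5. With each of the 15 libraries left out in turn, experiment 2 differences stayed within 1.54 to 1.70 for RNY1, 1.18 to 1.34 for RNY3, 0.41 to 0.57 for RNY4 and 0.77 to 1.02 for RNY5. They were not computed with a whole experiment left out.

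Differences in the summed share ran from -0.56 to 0.39, -0.45 to 0.54 and -0.51 to 0.43 percentage points in the same order of comparisons. Shares within the family ran, in that order, from -1.40 to 0.72, -1.14 to 0.98 and -1.32 to 0.64 points for RNY1, from -0.0166 to 0.0170, -0.0248 to 0.0257 and -0.0221 to 0.0227 for RNY3, from -0.0584 to 0.0232, -0.0409 to 0.0438 and -0.0445 to 0.0122 for RNY4, and from -0.66 to 1.37, -0.95 to 1.07 and -0.60 to 1.28 for RNY5. None passed its exact permutation test (adjusted p 0.743 to 1 when libraries were left out). With a whole experiment left out, a single separated share could not pass after adjustment, so those settings say little. The exact sign-flip test over 5 experiments, the paired form, gave adjusted p of 0.469 to 1 but cannot go below 0.0625, so it could not pass. Adding pseudogenes to the family was not run, since 0 genes of the count table carry a Y RNA pseudogene name. RNY3 and RNY4, at 66 to 465 counts per library, limit what small differences these data can show.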
